A study of Caenorhabditis elegans with 36 samples.

Results

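The genome of Caenorhabditis elegans held 6484 broad DVE-1 peaks in the list for worms on control (empty L4440 vector) RNAi combined with atp-2 RNAi, and 638 of them, 9.84% (95% Wilson interval 9.14 to 10.6), shared no base with any peak of 4 HDA-1 lists. These 638 regions are described here. They were chosen by their overlap alone: a DVE-1 peak was kept when it overlapped, by 1 bp or more, no HDA-1 peak listed under control RNAi, control with atp-2 RNAi, dve-1 RNAi or dve-1 with atp-2 RNAi. The overlap with HDA-1 is therefore the selection and not a finding, and absence from a list means that no peak was called there, not that HDA-1 was absent. The other 5846 DVE-1 peaks of the same list, each overlapping at least 1 HDA-1 peak, are the comparison used throughout.

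DVE-1 is a homeodomain protein related to the mammalian chromatin organizer SATB1, and it enters intestinal nuclei and promotes the mitochondrial unfolded protein response (UPRmt) when mitochondria are disturbed. HDA-1 is a class I histone deacetylase, an enzyme that removes acetyl groups from histones and works within several chromatin complexes. Knockdown of atp-2, which encodes a subunit of the mitochondrial ATP synthase, is a standard way to provoke UPRmt in worms.

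Chromatin immunoprecipitation with sequencing (ChIP-seq) was carried out on whole day 1 adults with GFP-Trap agarose. HDA-1 was pulled down from glp-4(bn2) worms carrying hda-1p::hda-1::gfp and DVE-1 from glp-4(bn2) worms carrying dve-1p::dve-1::gfp. Both proteins were thus tagged copies expressed from transgenes under their own promoters, and the study's methods describe the ChIP worms as overexpressing them. All animals had the glp-4 mutation, which prevents a normal germ line at the restrictive temperature. In worms with these transgenes, the study reports that dve-1 RNAi strongly lowered tagged HDA-1 protein and that hda-1 RNAi lowered tagged DVE-1 protein. The peak lists carry no measure of these levels. The HDA-1 strain was fed control RNAi, control with atp-2 RNAi, dve-1 RNAi or dve-1 with atp-2 RNAi. The DVE-1 strain was fed control RNAi, control with atp-2 RNAi, hda-1 RNAi, or hda-1 together with atp-2 RNAi (hda-1/atp-2 RNAi below). The 36 libraries comprised 18 ChIP and 18 input libraries, with 2 of each per condition and 3 of each for both dve-1 RNAi conditions, and they were deposited as 8 peak lists, 1 per condition, holding 57748 peaks. The lists give positions only. Peak height, the depth behind a peak and the values of single replicates are unknown, so a comparison below carries an interval for counting peaks, which treats peaks as separate draws, and no spread between replicates. No library from untagged worms was used here. The control and control with atp-2 libraries stand in 1 block of sample numbers, and those with hda-1 or dve-1 RNAi in another. The study states that its ChIP experiments ran over a long time with several lots of GFP-Trap agarose. Differences between conditions with and without hda-1 or dve-1 RNAi therefore cannot be told apart from differences between these blocks.

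DVE-1 peaks were placed on marker genes of tissues, which describe genes near peaks and do not name cells. All 15 intestinal markers had a DVE-1 peak of the atp-2 list within 500 bp of the 5' end, compared with 0 of 7 body muscle, 0 of 4 pharynx muscle and 1 of 8 germ line markers, 2 of 8 neuronal and 2 of 8 epidermal markers. Over all protein-coding genes, 31.2% had such a peak, and 6.55% of those had 1 of the 638 regions. None of the intestinal markers carried a region, and with only 15 genes this 0 is not set apart from that share. Epidermal elt-3, which encodes a GATA transcription factor, was the 1 marker that did.

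These 6 sequences are shown to place the GATA-type words, described further on, within regions lying far from HDA-1 or at genes that need dve-1 for induction. They were picked for the words: of 13 such windows that overlap no exon, taken from the widest and farthest members and those at dve-1-dependent genes, 5 hold a word and are all shown, and 8 hold none, of which math-24 is shown. Each is the central 160 bases of a peak on the plus strand of WBcel235, the assembly that UCSC calls ce11, read from the RefSeq genome. Capitals mark the letters CTTATCA or the core TGATAA on either strand, which reads TGATAAG or TTATCA on the other. The last sequence, at math-24, holds neither.
fbxa-53, chrX:1718650-1718809: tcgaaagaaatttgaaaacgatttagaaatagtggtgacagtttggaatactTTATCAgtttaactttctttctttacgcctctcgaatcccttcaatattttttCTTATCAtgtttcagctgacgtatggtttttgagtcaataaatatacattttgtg
between genes, chrX:1734379-1734538: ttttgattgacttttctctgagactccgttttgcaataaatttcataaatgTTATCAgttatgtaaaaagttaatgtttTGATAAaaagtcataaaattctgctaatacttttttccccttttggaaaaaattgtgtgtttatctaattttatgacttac
clc-21, chrV:17416879-17417038: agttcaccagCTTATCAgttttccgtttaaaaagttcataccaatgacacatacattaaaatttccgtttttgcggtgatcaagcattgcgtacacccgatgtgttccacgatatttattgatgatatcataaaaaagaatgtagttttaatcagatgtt
ZK6.6, chrV:388226-388385: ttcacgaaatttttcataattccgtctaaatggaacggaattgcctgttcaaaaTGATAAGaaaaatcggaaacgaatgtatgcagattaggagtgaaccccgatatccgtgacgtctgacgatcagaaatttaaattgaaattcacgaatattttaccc
lars-1, chrIII:4186988-4187147: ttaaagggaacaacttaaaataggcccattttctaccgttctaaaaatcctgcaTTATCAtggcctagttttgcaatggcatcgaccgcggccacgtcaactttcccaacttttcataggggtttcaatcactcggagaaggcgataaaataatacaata
math-24, chrII:1899810-1899969: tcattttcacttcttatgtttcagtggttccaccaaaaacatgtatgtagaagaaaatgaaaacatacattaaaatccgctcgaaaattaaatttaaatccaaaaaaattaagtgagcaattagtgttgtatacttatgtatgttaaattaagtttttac

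The regions were narrow. Their median width was 628 bp (interquartile range 482.5 to 1048.5, from 280 to 4936 bp), compared with 1266.5 bp for the other DVE-1 peaks. Width is partly set by the rule, since a wide peak is more likely to touch an HDA-1 peak, so no test was made of it. The gap to the nearest HDA-1 peak of any list had a median of 3438.5 bases and ran from 19 to 79583. Only 13 regions lay within 500 bp of an HDA-1 peak, 410 (64.3%) lay within 5000 bp and 92 (14.4%) lay more than 10000 bp away. The 5 members just inside the rule had gaps of 19, 58, 76, 132 and 246 bases, and the 5 peaks just outside it shared 8, 32, 54, 90 and 114 bases with an HDA-1 peak. Taken alone, the control list left 1228 DVE-1 peaks without overlap, the control with atp-2 list 1027, the dve-1 RNAi list 1947 and the dve-1 with atp-2 list 1389. With each of these lists dropped from the rule in turn, the members numbered 734, 888, 646 and 729, so the control with atp-2 list removed the most peaks that no other list removed.

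**Figure D1:**
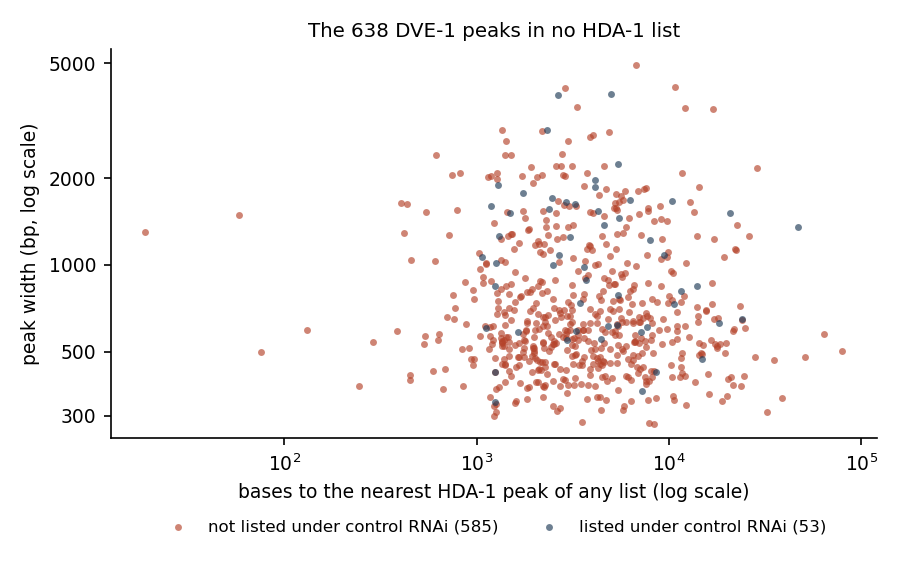
Width of each of the 638 DVE-1 peaks in no HDA-1 list (vertical axis, bp, log scale) against the bases to the nearest HDA-1 peak of any list (horizontal axis, log scale). Each point is 1 peak, dark where a DVE-1 peak was also listed under control RNAi (53) and red where not (585), and most points lie between 1000 and 10000 bases from HDA-1.

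The widest member covered chrV:19455148-19460083, 4936 bp over the 5' ends of Y43F8B.13, Y43F8B.14 and Y43F8B.24, and 6786 bases from HDA-1. The next in width were 4147 bp at B0507.6 (chrV:8742153-8746299), 4122 bp over the C54F6 gene cluster (chrV:7524615-7528736), 3919 bp at skr-4, a Skp1-related gene (chrV:19922455-19926373), 3894 bp between genes (chrI:4590927-4594820), and 3542 bp over gst-16 and gst-19, both glutathione S-transferase genes (chrII:13624283-13627824). Of these 6 broad regions, 4 were on chromosome V.

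The member farthest from HDA-1 was chrX:1718479-1718981, 503 bp at the 5' end of the F-box gene fbxa-53, with 79583 bases to the nearest HDA-1 peak. Next came chrX:1734172-1734745, which lay 63819 bases away, and chrV:17416720-17417197 at the claudin-like gene clc-21, which lay 51296 bases away. Another, chrX:10475-11831, stood at the chromosome end, where 87.0% of its central 200 bp was soft-masked repeat. The last in this group, chrV:14277475-14277820 and chrV:14267328-14267794, each covered a snRNA gene, F40G12.14 and F40G12.13, and shared a run of 167 identical bases. The authors kept uniquely mapping read pairs only, so near-identical copies are measured through the pairs that reach past them, and both regions are uncertain.

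Across the other 3 DVE-1 lists, which the rule did not use, the regions were listed less often than the other DVE-1 peaks. The lists differ in length, with 4279 peaks for control, 6962 for hda-1 and 8221 for hda-1/atp-2 RNAi, and both sets of peaks were listed more often in the longer lists. Only 53 of the 638 (8.31%) overlapped a DVE-1 peak under control RNAi without atp-2 RNAi, against 3935 (67.3%) of the other peaks and 61.5% of all 6484. The difference was -59.0 percentage points (95% Newcombe interval -61.2 to -56.3). Under hda-1 RNAi alone, 318 (49.8%) were listed, against 88.3% of the others and 84.5% of all, a difference of -38.4 points (-42.4 to -34.5). Under hda-1/atp-2 RNAi, 480 (75.2%) were listed, against 93.9% of the others and 92.1% of all, a difference of -18.7 points (-22.3 to -15.5). Most of the regions were thus still listed for DVE-1 when hda-1 and atp-2 were both knocked down. Both hda-1 RNAi lists come from another block of samples than the control lists. An effect of hda-1 RNAi on these shares cannot be told apart from a difference between the blocks.

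**Figure D2:**
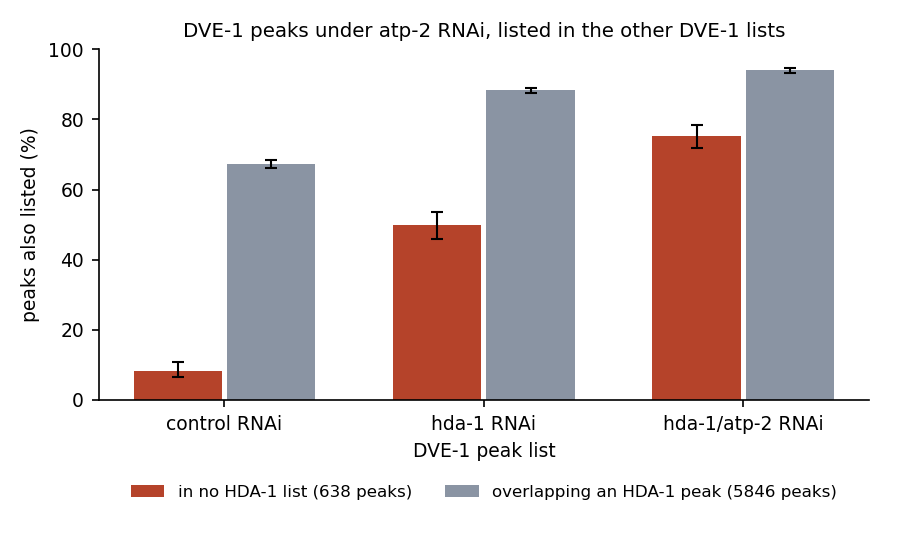
Share of DVE-1 peaks of the control with atp-2 RNAi list that overlap a peak of each other DVE-1 list (vertical axis, percent; error bars, 95% Wilson interval over peaks). The 638 peaks in no HDA-1 list (red) reach 8.31%, 49.8% and 75.2%, below the 5846 others (grey) in every list.

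Narrow peaks are listed less often, and the gap became smaller once width was taken into account. With the other peaks weighted to the width distribution of the 638, the 3 differences were -43.3, -28.8 and -13.2 points. With only peaks absent under control RNAi on both sides, an alternative chosen after the data were seen, the 2 differences left were -23.3 points for hda-1 RNAi and -10.9 for hda-1/atp-2 RNAi. All of these intervals lay below 0.

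Read region by region, the most common pattern was a peak listed in both hda-1 RNAi conditions but not under control RNAi, with 275 regions (43.1%, against 22.8% of the others). Both hda-1 RNAi lists come from the other block of samples, and the cause of this pattern was not tested. A further 167 (26.2%, against 5.42% of the others) were listed only with hda-1 and atp-2 RNAi together. Another 135 (21.2%, against 3.85% of the others) were in none of the other DVE-1 lists. Just 29 (4.55%) were in all, against 64.4% of the others. Where a region was listed again, the new peak covered most of it, a median of 93.2% of its width under hda-1/atp-2 RNAi and 84.5% under hda-1 RNAi. Of the 554030 bp in the 638 regions, 65.3%, 40.4% and 8.12% were covered under hda-1 with atp-2, hda-1 and control RNAi.

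The wider regions were listed more often. With the 638 put in 4 groups of like size from the narrowest to the widest, the number listed under control RNAi was 5 of 160, 10 of 160, 11 of 158 and 27 of 160, and under hda-1/atp-2 RNAi it was 99, 127, 123 and 131. Distance from HDA-1 showed no such fall. Under hda-1/atp-2 RNAi, 71.2% of the 177 regions within 2000 bases of HDA-1 were listed (interval 64.1 to 77.4), and 84.8% of the 92 regions over 10000 bases away (76.1 to 90.7).

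The regions were spread over all 6 nuclear chromosomes, with the largest share on V. Chromosome V held 163 (25.5%, against 18.9% of the others) and IV held 126 (19.7%, against 15.5%), while X held 88 (13.8%, against 20.2% of the others and 19.6% of all), a difference for X of -6.39 points (-9.07 to -3.33). The arms of the chromosomes, taken as the outer 25% at each end, held 334 (52.4%, against 43.5% of the others and 44.4% of all), a difference of 8.83 points (4.75 to 12.9). The arms of worm autosomes are rich in fast-evolving gene families and repeats. On II and III they held 61.4% and 60.8% of the regions, against 43.8% and 43.5% of the others, whereas on I the shares were 44.4% and 43.9%. Among the 92 regions over 10000 bases from HDA-1, 64 (69.6%) were in the arms.

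Fewer of the regions reached a gene start. A protein-coding 5' end lay within 500 bp of 350 (54.9%), against 68.3% of the others and 66.9% of all, a difference of -13.4 points (-17.5 to -9.40). With the others weighted to the members' widths it was -8.14 points (-12.33 to -3.998). Measured from the central base of each peak in place of its edges, the shares were 42.9% and 41.1%, a difference of 1.89 points (-2.10 to 5.96). Among peaks at a gene start, the centre lay a median of 85.5 bases upstream of the nearest 5' end in the 350 regions and 156 bases upstream in the others. These peaks were chosen by their edges, and the centre lay within 500 bp of a 5' end in 78.3% and 60.1% of them. The others are wider, and the part of width in these distances was not tested. The central base was between genes in 300 regions (47.0%, against 52.4% of the others, -5.41 points, -9.46 to -1.32), in an exon of a protein-coding gene in 158 (24.8%, against 18.9%, 5.85 points, 2.49 to 9.48) and in an intron in 156 (24.5%, against 24.4%).

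The centres of the regions were rich in GATA-type words. GATA factors read the core TGATAA, and the intestine of the worm depends on 1 of them, ELT-2. The longer word CTTATCA, whose last 6 letters are the core on the other strand so that each match also counts for the core, was found within the central 200 bp of 167 regions (26.2%). Of the other DVE-1 peaks 9.78% held it, and of 501361 windows of 200 bp tiling the genome 3.44%. The difference from the others was 16.4 points (13.04 to 20.01). The core alone stood in 296 regions (46.4%), against 26.3% of the others and 17.8% of genome windows, a difference of 20.1 points (16.05 to 24.09). A match is a run of letters and does not show that a factor was bound. The word CTTATCA had been used on these data before this search.

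**Figure D3:**
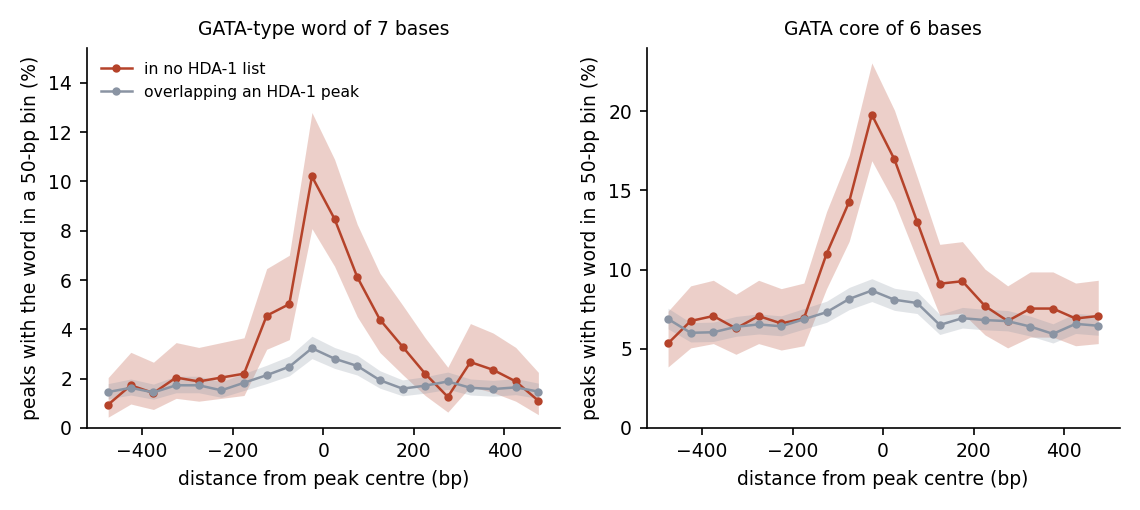
Share of peaks with a GATA-type word in each bin of 50 bp (vertical axis, percent; shading, 95% Wilson interval over peaks) by distance from the peak centre (horizontal axis, bp), for the 7-base word (left) and its 6-base core (right). In peaks in no HDA-1 list (red) the share rises to 10.2% and 19.8% beside the centre, against 3.23% and 8.67% in the other peaks (grey), and the curves meet about 250 bp out.

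The word was concentrated at the centre itself. In the 50 bp before the centre, 10.2% of the regions held CTTATCA (interval 8.09 to 12.8), and in the bin 450 to 500 bp before it 0.942% did. The other peaks had 3.23% and 1.45% in the same bins. Searching whole peaks removed most of the contrast: 51.7% and 45.4% for CTTATCA, a difference of 6.29 points (2.21 to 10.4), and 79.8% and 76.7% for the core, 3.1 points (-0.36 to 6.23). The peaks of the comparison were wider and gave more letters to search, but the part of width in this change was not tested.

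The higher share of CTTATCA was seen on each chromosome and in each kind of location. By chromosome the regions held it in 18.2% (X) to 34.7% (II), against 8.58% (III) to 11.2% (V) of the others, and the 6 differences ran from 8.18 points on X (1.26 to 17.6) to 24.8 on II (15.96 to 34.64). Among peaks no wider than the median of 628 bp the shares were 37.2% and 12.1%, a difference of 25.1 points (19.6 to 30.7), and among wider peaks 15.1% and 9.13%, a difference of 5.97 points (2.34 to 10.4). Among peaks absent under control RNAi they were 27.2% and 12.6%, a difference of 14.6 points (10.8 to 18.6), and among peaks listed there, with 53 members, 15.1% and 8.41%, a difference of 6.68 points whose interval, -0.62 to 18.7, includes 0. With a centre between genes they were 31.0% and 10.6%, in an intron 20.5% and 8.36%, and in an exon 24.1% and 9.76%.

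The 167 regions with CTTATCA at the centre were narrower than the 471 without it, with medians of 555 and 709 bp, and 141 of them (84.4%) were listed for DVE-1 under hda-1/atp-2 RNAi, against 72.0% of the 471. That difference was 12.5 points (5.09 to 18.8). Under control RNAi 8 (4.79%) and 45 (9.55%) were listed, a difference of -4.76 points whose interval, -8.56 to 0.20, includes 0, and under hda-1 RNAi 53.9% and 48.4%, a difference of 5.48 points (-3.32 to 14.1). Around the word, the base after TGATAAG was A in 57.4% of 202 occurrences in the regions and in 57.9% of 661 in the others, and AC preceded it in 23.8% and 21.5%. The base 2 positions before the word was A in 58.4% and 48.7% and T in 16.3% and 23.1%, with no test.

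Of the 12 words searched on both strands, 7 had a difference whose interval left out 0. The regions had more of the GATA-type words, of the homeodomain core TAATTA (10.5% against 7.49%, 3.01 points, 0.75 to 5.71) and, narrowly, of AATAAATA (6.58% against 4.77%, 1.81 points, 0.04 to 4.07). For TAATTA the interval of the regions' own share, 8.35 to 13.1, holds the 9.28% of genome windows. They had less of CTGCGTCTC (2.35% against 4.62%, -2.27 points), GAGAGAGA (1.88% against 4.04%, -2.16 points) and CGCGCG (1.41% against 3.16%, -1.75 points). The shares of the bZIP-type words TGACTCA (3.13% and 3.06%), TGACGTCA (1.88% and 1.37%) and TTACGAAA or TTGCGAAA (4.86% and 5.17%), of the E-box CACGTG (2.66% and 4.28%) and of the run TTTTTTTT (20.4% and 21.1%) had differences whose intervals include 0. For CACGTG the interval lay below 0 under 4 alternatives, among them width weighting (-1.73 points) and leaving out X (-2.14 points). In the genome windows TAATTA stood in 9.28%, AATAAATA in 4.74%, CTGCGTCTC in 0.791%, GAGAGAGA in 1.31%, CGCGCG in 1.08%, TGACTCA in 1.82%, TGACGTCA in 1.12%, TTACGAAA or TTGCGAAA in 2.76%, CACGTG in 3.32% and TTTTTTTT in 22.7%. Ranked among all 2080 words of 6 letters by the difference in share, with no test, TGATAA came at 1 and CTTATC at 2, with 18.4 points, while GAGAGA came last, with -7.17 points. The centres were also lower in GC, with a median of 33.5% against 36.5% for the others and 35% for the genome windows, and the part of GC in these word counts was not tested.

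At genes, 409 of 19973 protein-coding genes (2.05%) had 1 of the 638 regions within 500 bp of the 5' end, whereas 31.2% had any DVE-1 peak of the atp-2 list. No gene had both a member and another DVE-1 peak of that list within this distance. An HDA-1 peak of any list reached within 500 bp of the same 5' end at only 4 of the 409, D1054.3, Y68A4B.3, pfut-1 and C34H4.5, and the rule makes such cases rare. Genes that share a promoter share a region, so these genes are not independent of each other.

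The study's own gene lists came from RNA-seq of worms that it calls wild-type, not of the tagged glp-4(bn2) strains, with the same RNAi targets. These lists were then placed on the regions, using only the gene identifiers. Of 799 placed genes induced by atp-2 RNAi, 32 (4.01%, interval 2.85 to 5.60) had a member, beside 2.05% of all protein-coding genes, and of 218 whose induction needed dve-1, 19 (8.72%, 5.65 to 13.2) did. Counted only over genes with any DVE-1 peak, the share was 6.71% (4.79 to 9.32) of 477 induced genes, close to the 6.55% (5.97 to 7.19) of all 6241 protein-coding genes with such a peak, and 10.7% (6.94 to 16.1) of 178 dve-1-dependent genes. Of the 139 genes that needed both dve-1 and hda-1, 15 (10.8%) had a member and no HDA-1 peak within 500 bp, compared with 4 of 79 that needed dve-1 alone, 2 of 140 that needed hda-1 alone and 11 of 441 that needed neither. Over genes with any DVE-1 peak, the share was 12.7% (7.86 to 19.9) of 118 needing both and 6.67% (2.62 to 15.9) of 60 needing dve-1 alone. It was 2.90% (0.80 to 9.97) of 69 needing hda-1 alone and 4.78% (2.69 to 8.36) of 230 needing neither. These shares are descriptions, since the lists come from the same study and small counts separate them.

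**Figure D4:**
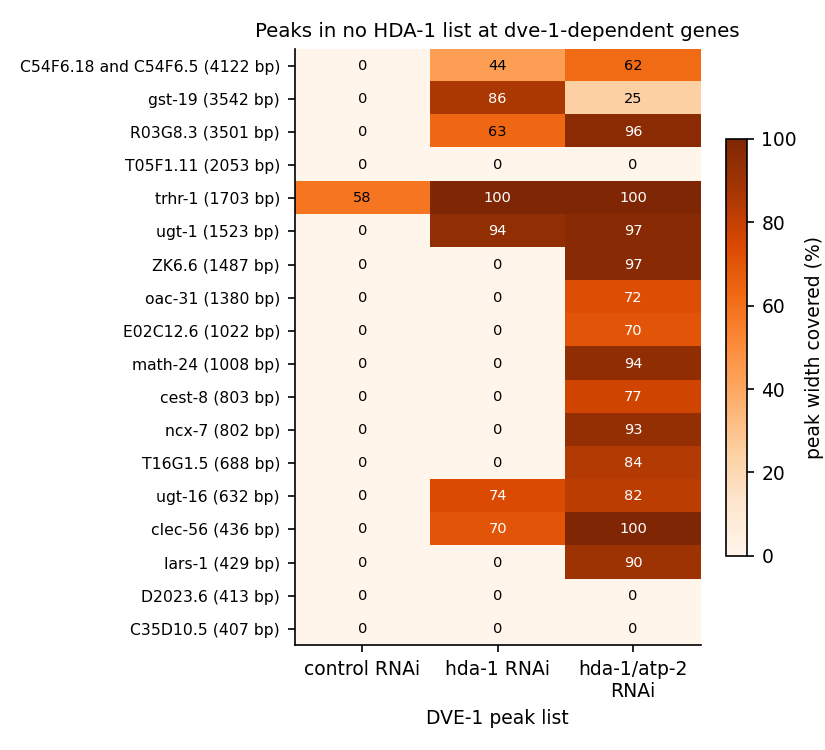
Percent of each peak's width covered by a DVE-1 peak of the other 3 lists (columns; colour and printed number) at the 19 dve-1-dependent genes with a peak in no HDA-1 list (rows, widest first, width in bp). Of the 18 peaks, trhr-1 alone was listed under control RNAi, 7 were listed for hda-1 RNAi and 15 for hda-1/atp-2 RNAi.

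The 19 genes had 18 regions between them, and 4 of the genes encode conjugating or hydrolysing enzymes (gst-19, ugt-1, ugt-16 and cest-8). C54F6.18 and C54F6.5 shared the 4122 bp region on V, which had 1799 bp listed for hda-1 RNAi and 2546 bp for hda-1/atp-2 RNAi, with HDA-1 2894 bases away. The glutathione S-transferase gene gst-19 (chrII:13625545-13627145, minus strand) lay under a 3542 bp region with 3052 bp listed for hda-1 RNAi and 872 bp for hda-1/atp-2 RNAi. It was the 1 region of the 18 with more of its width listed under hda-1 RNAi alone.

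The UDP-glucuronosyltransferase gene ugt-1 (chrV:10395663-10397820, plus strand) had a 1523 bp region, with 1433 bp listed under hda-1 RNAi and 1474 bp with atp-2 RNAi added, and HDA-1 1439 bases away. Its relative ugt-16 (chrV:12825024-12827442, plus strand) had 632 bp, of which 467 and 517 bp were listed. The carboxylesterase gene cest-8 (chrX:12219660-12222745, plus strand) had 803 bp, of which 620 bp were listed under hda-1/atp-2 RNAi only. Both ugt-16 and cest-8 held CTTATCA at the centre of the region, as did ZK6.6.

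The thyrotropin-releasing hormone receptor homolog trhr-1 (chrI:6989067-6992108, plus strand) had the only region of the 18 listed under control RNAi, with 990 of its 1703 bp there and the whole of it under both hda-1 RNAi conditions. The sodium and calcium exchanger gene ncx-7 (chrIII:9715885-9720291, minus strand) had 802 bp, of which 747 bp were listed under hda-1/atp-2 RNAi, and HDA-1 lay 1274 bases away. The cytosolic leucyl-tRNA synthetase gene lars-1 (chrIII:4181549-4186801, minus strand) had 429 bp, of which 386 bp were listed in that condition alone.

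The remaining dve-1-dependent genes included the C-type lectin clec-56 (436 bp, all of it listed under hda-1/atp-2 RNAi), the O-acyltransferase homolog oac-31 (1380 bp, 22680 bases from HDA-1), the MATH-domain gene math-24 (1008 bp, 4290 bases from HDA-1), R03G8.3 (3501 bp, 12169 bases from HDA-1), E02C12.6, T16G1.5 and ZK6.6. The last lay just inside the rule, 58 bases from an HDA-1 peak of the control list. Regions at T05F1.11, D2023.6 and C35D10.5 were in no other DVE-1 list. Of the 18 regions, 3 held CTTATCA and 5 the core TGATAA at the centre, beside 26.2% and 46.4% of all 638 regions.

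The 13 induced genes that did not need dve-1 included clec-4 and clec-66 (C-type lectins, 1207 and 1276 bp), F09A5.2 (2831 bp), F58F9.4 (1097 bp), Y51B9A.9 (634 bp), math-20 (924 bp), fbxa-54 and fbxa-80 (706 and 632 bp), mfsd-8, a major facilitator gene (465 bp), F17B5.8 (652 bp), Y39B6A.41 (392 bp) and mpst-1, a mercaptopyruvate sulfurtransferase gene that shared its 413 bp region with D2023.6. Of the 11 regions at genes that needed neither, 5 were in no other DVE-1 list, 6 were listed under hda-1/atp-2 RNAi and 4 held CTTATCA. Over all 638 regions these shares were 21.2%, 75.2% and 26.2%.

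Gene families split in their share of such regions. Among C-type lectin (clec) genes, many of which are induced by infection, 16 of the 56 with a DVE-1 peak had one in no HDA-1 list (28.6%). Among F-box (fbxa) genes it was 16 of 74 (21.6%), among UDP-glucuronosyltransferases (ugt) 8 of 39 (20.5%), among glutathione S-transferases (gst) 5 of 32 (15.6%), and among cytochrome P450 (cyp) genes 4 of 42 (9.52%), beside 6.55% for all protein-coding genes with a DVE-1 peak. These are counts of genes, and neighbours shared regions: the 16 clec genes had 15, the 16 fbxa genes 14 and the 5 gst genes only 3 regions. For nuclear hormone receptors (nhr) the count was 6 of 122 (4.92%).

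**Figure D5:**
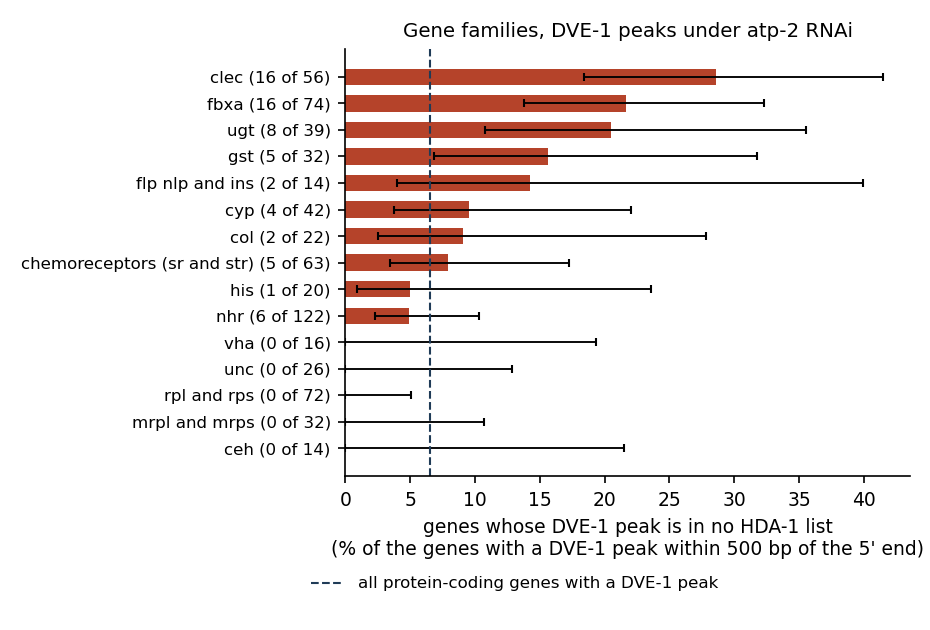
Share of genes whose DVE-1 peak of the atp-2 list is in no HDA-1 list, of the genes of each family with any such DVE-1 peak within 500 bp of the 5' end (horizontal axis, percent; error bars, 95% Wilson interval over genes; counts beside each name). The dashed line is the 6.55% of all protein-coding genes with such a DVE-1 peak. Of the families shown, clec, fbxa and ugt lie farthest to its right, and no ribosomal protein gene is among the members.

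None of 78 cytosolic ribosomal protein (rpl and rps) genes had a member, although 72 had a DVE-1 peak, and none of 70 mitochondrial ribosomal protein genes, of which 32 had a DVE-1 peak. Counts of 0 were also found for the vha genes of the vacuolar proton pump (with a DVE-1 peak at 16 of 20), the ceh homeobox genes (14 of 63) and the unc genes (26 of 94). Of 19 genes of the mitochondrial stress response, 14 had a DVE-1 peak and 0 a member, and of 25 genes that the study named, 19 had a DVE-1 peak and 0 a member. With 6.55% as the share over all genes with a DVE-1 peak, a count of 0 does not set apart the lists with 14 to 32 such genes. The cytosolic ribosomal protein list was larger, with 72 such genes, and its count of 0 was not tested. DVE-1 peaks at the genes of all these lists thus overlapped an HDA-1 peak of at least 1 list in every case.

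Within the families, the widest regions were at clec-47 (1686 bp, 1557 bp of it listed under hda-1/atp-2 RNAi), at clec-167 and clec-168, which shared 1602 bp listed in full under both hda-1 RNAi conditions, and at clec-204 (1449 bp). For ugt genes they were at ugt-22 (2173 bp, 28586 bases from HDA-1), ugt-52 (1876 bp), ugt-1 and ugt-58 (1355 bp). For fbxa genes they were at fbxa-7 and fbxa-73, which shared 2092 bp, fbxa-163 (1992 bp) and fbxa-98 (22289 bases from HDA-1). The glutathione S-transferases gst-2 and gst-4 stand back to back on IV and shared a 564 bp region (chrIV:10141863-10142426), with 504 and 476 bp listed under hda-1 and hda-1/atp-2 RNAi, no listing under control RNAi, and CTTATCA at the centre. Among the 4 cyp genes, cyp-35A5 had 604 bp lying 24809 bases from HDA-1, and cyp-13B1, cyp-13A1 and cyp-13A11 had 466, 457 and 429 bp. The nhr genes included nhr-176 (1253 bp), nhr-226 (898 bp), nhr-146 (698 bp) and nhr-106 (476 bp).

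Families with few members had collagen genes col-151, on the ugt-1 region, and col-62, the histone gene his-9, the neuropeptide genes nlp-62 and nlp-79, and the ion channel genes lgc-1 and lgc-54. Of 1371 chemoreceptor genes 63 had a DVE-1 peak and 5 a member, among them srz-58, srr-9, srbc-24 and srr-2. Of the small RNA genes, 9 of 612 tRNA (1.47%), 6 of 129 snRNA (4.65%), 1 of 346 snoRNA (0.289%, D1054.17) and 1 of 261 miRNA genes had a member within 500 bp, beside the 2.05% of protein-coding genes (the miRNA gene was cel-mir-789-1, whose 1892 bp region had 1442 bp listed under control RNAi and 615 bp under hda-1/atp-2 RNAi). Over the genes with a DVE-1 peak, the shares were 1.76% of tRNA, 9.23% of 65 snRNA, 0.532% of snoRNA and 1.12% of miRNA genes. For protein-coding genes that share was 6.55%. DVE-1 peaks of the list were near 511 of the tRNA genes, so tRNA genes had them mostly together with HDA-1. The tRNA and snRNA genes have near-identical copies, and the regions over them are uncertain.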

How the data were processed

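ChIP-seq data for GFP-tagged HDA-1 and DVE-1 were analysed from 8 deposited peak lists, each holding positions (chromosome, start and end) as the authors wrote them. Per the labels and the study's methods, the authors trimmed reads with Trim Galore, aligned them to ce11 with BWA 0.7.13-r1126, kept uniquely mapping proper pairs, removed duplicates with Picard 2.17.6 and called broad peaks with MACS2 2.1.1. The deposited lists are named as overlaps between replicates, but the rule that led from the samples to 1 list per condition is not given in the sources used here. The lists hold no scores, and the depth of single libraries is unknown beyond a minimum that the study states. There were 0 other columns of per-sample values.

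Overlap was 1 bp or more, and bedtools 2.31.1 gave the same members. Gene positions came from Ensembl release 115 (WBcel235), a 5' end counting as near within 500 bp, and sequence from the RefSeq WBcel235 genome. Words were searched on both strands in the central 200 bp. Shares carry 95% Wilson intervals and differences Newcombe intervals, computed in Python 3.11.15 with numpy 2.4.6 and pandas 2.3.3. No test across samples was possible with 1 list per condition. Scripts were tested on simulated regions. Lists of induced and dependent genes are the study's, by identifier only, and genes absent from the annotation were left out.

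The members and the gene lists were chosen with earlier results of these data known. The words CTTATCA, CTGCGTCTC and TTACGAAA or TTGCGAAA had also been used on these data before. Genes were named by rule: the 6 widest members, the 6 farthest from HDA-1, the 5 on each side of the rule's edge, induced genes with a member (all that need dve-1, and up to 12 others, widest first) and up to 4 genes per family, widest first. The 4 genes that also have HDA-1 near, and the genes under other observations, were named after their values were seen. Alternatives were a distance of 500 bp from HDA-1, the control HDA-1 lists alone, an overlap of at least 50% of a peak, weighting to the members' widths, leaving out X, distances of 250 and 1000 bp, other 5' ends, central 400 bp and whole peaks.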

Additional observations from a re-analysis of the deposited data

How the results depend on the processing

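No paired analysis was possible because each condition has 1 combined list, and for the same reason no replicate could be left out. The number of members was 625 when HDA-1 peaks within 500 bp also counted, 646 to 888 when each HDA-1 list was dropped in turn, and stayed within 1.5 times the 638. The lower listing in the other DVE-1 lists, the lower share on X, the higher share in the arms and the higher share of CTTATCA kept their direction and an interval without 0 under every alternative run for them, peaks absent under control RNAi (chosen after the data were seen) included. The share near a gene start was still lower with width weighting (-8.14 points) and reversed with the central base, to 1.89 points with an interval that includes 0; the cause was not tested. Searching whole peaks made 11 of the 12 words differ in place of 7, and turned TAATTA to -12.4 points, TGACTCA to -10.4, TGACGTCA to -4.72 and AATAAATA to -13.3. TGACTCA also turned with width weighting (-0.0097) and with peaks absent under control RNAi (-0.31), and TTTTTTTT with the HDA-1 control lists alone (0.13), width weighting (0.72) and the central 400 bp (2.49), all with intervals that include 0. CACGTG gained an interval below 0 with width weighting, without X, in the central 400 bp and in whole peaks. The excess of AATAAATA had an interval including 0 under 5 alternatives. The lists carry no heights or replicate values, so a region near a calling threshold cannot be told apart from one far above it, and absence from a list is no measure of HDA-1.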

Other observations

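Genes outside the named lists were read from the 409 after their values were seen, and the following are descriptions without a test. Among stress and pathogen response genes, irg-4, an infection response gene, had a 639 bp region (chrIV:12435287-12435925) listed in full in both hda-1 RNAi conditions, not listed under control RNAi, with HDA-1 6543 bases away and CTTATCA at the centre. Of the 10 dod genes, named for lying downstream of the insulin pathway factor DAF-16, all had a DVE-1 peak and 3 had a member: dod-22 (771 bp), dod-24 (900 bp) and dod-17 (378 bp). Of 26 math and bath genes with a DVE-1 peak, 11 (42.3%) had a member, 9 of these listed under hda-1/atp-2 RNAi and 2 under hda-1 RNAi. Aspartyl protease (asp) genes had 4 of 12, saposin-like (spp) genes 3 of 19, claudin-like (clc) genes 4 of 14, pals genes 3 of 14 and carboxylesterase (cest) genes 3 of 18. These families were picked for their counts, and the share over all protein-coding genes with a DVE-1 peak was 6.55%.

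Metabolic genes with a member included daf-36, an oxygenase gene of steroid hormone synthesis (1425 bp, 9721 bases from HDA-1), the lysosomal lipase gene lipl-4 (531 bp), the cadmium-responsive gene cdr-1 (341 bp, with CTTATCA) and the purine synthesis genes atic-1 (938 bp), adsl-1 (739 bp) and pfas-1 (534 bp, in no other DVE-1 list). Both sid-1 (994 bp) and sid-2 (704 bp), which act in the uptake of double-stranded RNA, had a member, as did eri-6 and eri-7, which shared a 789 bp region of which 713 bp were listed under control RNAi.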
